A study of Rattus norvegicus with 4 samples.

Results

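The MAP kinase phosphatases are 10 genes, Dusp1, Dusp2, Dusp4, Dusp5, Dusp6, Dusp7, Dusp8, Dusp9, Dusp10 and Dusp16. They were followed here in NR8383 cells, an established macrophage line from rat lung lavage. They were taken as the array probes whose RefSeq accession maps to these rat symbols. The mapping used no measured value, but the genes were chosen with earlier results of these data known. All 10 genes were found, on 11 of the 45598 probes of the array, among 16581 genes that could be named. The cells, described as past 20 passages, had been seeded 48 h earlier. All 4 samples used here were cultures exposed for 4 h to 1.2 cm²/cm² of the amino-functionalized carbon nanotube NRCWE049, as biological replicates of 1 condition. The design of the series also names unexposed cultures, which were not analysed here. The values therefore describe exposed cells and do not show which genes the nanotubes changed. Of the 8 macrophage markers measured, all 8 were detected, including Cd68 and Csf1r. Of 20 measured markers of other cell types, 5 were detected. These were all 3 endothelial markers (Pecam1, Cdh5 and Vwf), the T cell marker Cd3d and the neutrophil marker S100a8. Of all named genes, 52.5% were detected.

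MAP kinases (ERK, JNK and p38) are switched on by phosphorylation of a threonine and a tyrosine in their activation loop. The MAP kinase phosphatases remove both phosphates and so end the signal. Many of their genes are themselves induced by the kinases they switch off, which closes a negative feedback loop, and in macrophages this loop limits the output of inflammatory cytokines. The family is usually divided into nuclear, inducible enzymes (Dusp1, Dusp2, Dusp4, Dusp5), cytoplasmic enzymes that prefer ERK (Dusp6, Dusp7, Dusp9) and enzymes that prefer JNK and p38 (Dusp8, Dusp10, Dusp16).

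RefSeq promoter windows of the GRCr8 assembly, from 250 bases before to 50 bases after the gene start, were matched for 9 of the 10 genes. Dusp4 was not in the table. Dusp1 and Dusp5, both immediate early genes, are shown because each held a motif that is rare among all 33469 windows of the same length. The cAMP response element, bound by CREB and ATF factors, was searched as TGACGTCA, which reads the same on both strands. It was in the Dusp1 window from 124 to 117 bases before the start, and in 1.83% of all windows. The CArG box, bound by serum response factor, was in the Dusp5 window at 82 to 73 and again at 72 to 63 bases before the start, and in 1.64% of all windows. Capitals mark the cAMP response element in the Dusp1 sequence and the 2 adjoining CArG boxes in the Dusp5 sequence. Both run 5′ to 3′ on the plus strand and end at the base before the gene start, at chr10:17184603-17184852 for Dusp1 and chr1:262543524-262543773 for Dusp5.
Dusp1: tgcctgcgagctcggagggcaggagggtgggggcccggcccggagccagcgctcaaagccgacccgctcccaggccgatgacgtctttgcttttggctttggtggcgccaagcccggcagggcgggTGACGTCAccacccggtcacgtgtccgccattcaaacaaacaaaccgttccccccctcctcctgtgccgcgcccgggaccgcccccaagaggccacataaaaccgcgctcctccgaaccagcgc
Dusp5: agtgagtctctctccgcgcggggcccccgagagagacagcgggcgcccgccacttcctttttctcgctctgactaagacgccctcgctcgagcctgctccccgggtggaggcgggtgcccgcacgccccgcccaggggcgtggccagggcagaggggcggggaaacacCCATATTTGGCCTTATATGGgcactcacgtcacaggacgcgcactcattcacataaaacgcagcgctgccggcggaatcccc
No other of the 9 windows held either motif. The GC box (GGGCGG on either strand) was in 7 of 9 windows, those of Dusp1, Dusp2, Dusp5, Dusp7, Dusp9, Dusp10 and Dusp16, against 33.1% of all windows. The GC content of the 9 windows was 56.3% to 81.0%, above the median of 51.7% over all windows. The AP-1 motif TGANTCA (7.33% of all windows), the NF-kB site (7.51%) and the TATA box TATAAA (14.2%), searched on both strands, were in none of the 9 windows. A match is a description of the letters and does not show binding in these cells.

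RNA was hybridised to one-colour Agilent arrays. Agilent's software marks each spot as well above the local background or not. Genes with 1 or more probes so marked on 4 of 4 arrays were taken as detected. By this rule 7 of the 10 phosphatase genes were detected, while 52.5% of all 16581 named genes were. The 7 were Dusp1, Dusp2, Dusp5, Dusp6, Dusp7, Dusp10 and Dusp16. Dusp4, Dusp8 and Dusp9 lacked this mark on all 4 arrays. By class, 3 of 4 nuclear, 2 of 3 cytoplasmic and 2 of 3 JNK and p38 phosphatases were detected. The 99th percentile of the negative control spots (the negative control limit below) was at a processed signal of 9.61 to 16.3 on the 4 arrays, and the lowest spot marked as well above background at 16.6 to 20.1. Brightness depends on each probe, so signals of different genes are not ranked here.

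**Figure D1:**
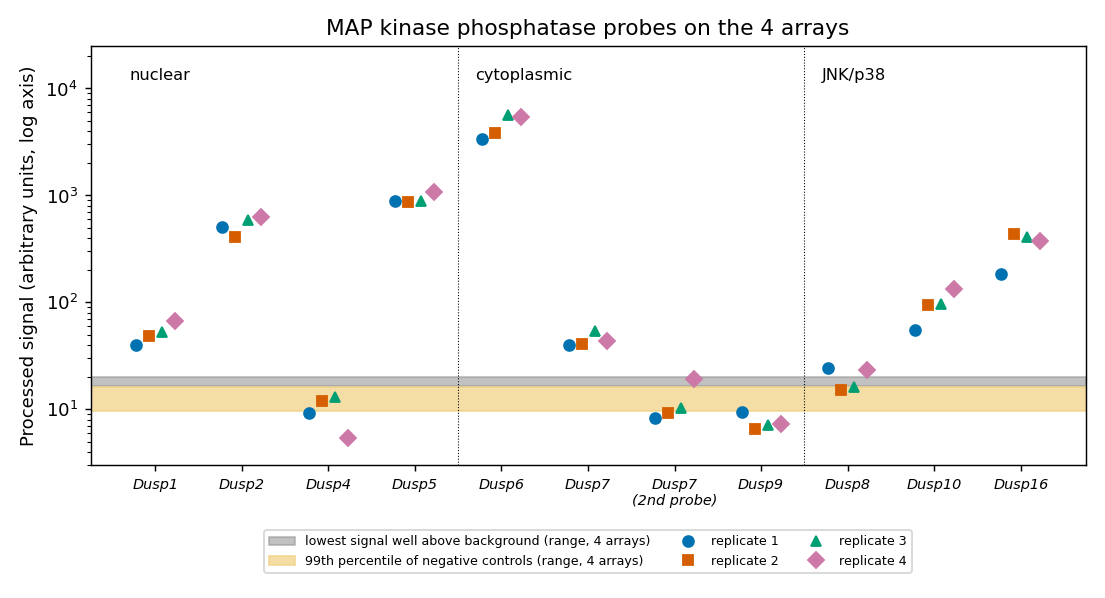
Processed signal (arbitrary units, log axis) of the 11 probes in each of the 4 replicates. The grey and yellow bands give the range over arrays of the lowest signal well above background and of the 99th percentile of negative controls. Dusp4, Dusp9 and the lower Dusp7 probe lie within or below the bands, Dusp8 within or just above them, and the other 7 probes clear both in all replicates.

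Among the nuclear phosphatases, Dusp1 encodes MKP-1, an immediate early enzyme that acts mainly on p38 and JNK. Its processed signal was 39.8, 48.1, 52.9 and 67.4 in replicates 1 to 4, which is 2.96 to 6.12 times the negative control limit of the same array. The values are low but on each array above the detection limit. Levels below are log2 signals minus each array's own 75th percentile over probes detected on all arrays. The Dusp1 level was -5.63, -5.36, -5.56 and -5.16 (mean -5.43 ± 0.21, SD, n = 4). The highest replicate was 1.39-fold above the lowest, and Agilent's error estimate of the spot was 14.1% of its signal.

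Dusp2, also called PAC-1, is a nuclear phosphatase of blood cells. Its signal was 504, 409, 587 and 628 and its level -1.97, -2.28, -2.09 and -1.94 (mean -2.07 ± 0.15, SD, n = 4). The replicates lay within 1.27-fold. Replicate 2 was the lowest.

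Dusp5 is a nuclear phosphatase specific to ERK. It was read from 2 spots of 1 probe on each array, with signals of 879, 863, 894 and 1074. Its level was -1.16, -1.20, -1.48 and -1.16 (mean -1.25 ± 0.15, SD, n = 4), so 3 replicates lay together and replicate 3 below them. Replicate 3 was not the lowest in unscaled signal, and its 2 spots differed, at levels of -1.60 and -1.36. Dusp4, which encodes the nuclear phosphatase MKP-2, had signals of 9.17, 12.1, 13.1 and 5.45, between 0.496 and 1.37 times the negative control limit.

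Of the cytoplasmic phosphatases, Dusp6 encodes MKP-3, an ERK phosphatase that is itself induced by ERK signalling. Its probe was printed 10 times on each array, which makes it the best measured gene of the family. Its signal was 3356, 3849, 5613 and 5457, and its level 0.77, 0.96, 1.17 and 1.18 (mean 1.02 ± 0.20, SD, n = 4). Replicate 1 was the lowest, and replicates 3 and 4 were alike. Single spots ran from 0.65 to 1.01 in replicate 1, 0.79 to 1.15 in replicate 2, 1.07 to 1.35 in replicate 3 and up to 1.35 in replicate 4. The spots of replicates 1 and 3 did not overlap, whereas the lowest spot of replicate 4 lay below the highest spot of replicate 1. The SD of spots within an array was 0.112 and the standard error of an array's mean was 0.032 to 0.039. Both include differences between positions that recurred across the arrays. The SD between replicates, taken over array means, was 1.77 times the SD of single spots. For Dusp5 the same ratio was 1.51, from 8 spots. The array means average different numbers of spots, so the ratios have no common reference value and are not comparable between the genes.

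**Figure D2:**
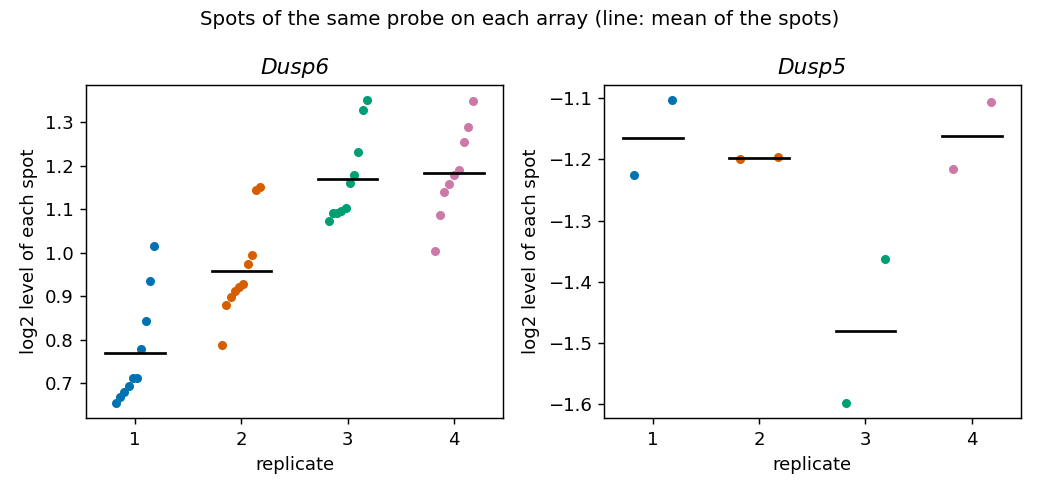
Log2 level of each spot of the Dusp6 probe (9 or 10 spots per array) and the Dusp5 probe (2 spots per array), by replicate; black lines are the means of the spots. The Dusp6 means lay between 0.77 and 1.18, and the Dusp5 mean of replicate 3 (-1.48) lay below those of replicates 1, 2 and 4; each panel has its own axis.

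Dusp7, an ERK phosphatase also called MKP-X, was represented by a pair of probes for the same transcript accession. The detected probe had signals of 40.1, 41.0, 54.4 and 43.7 and a level of -5.62, -5.59, -5.52 and -5.78 (mean -5.63 ± 0.11, SD, n = 4). Its replicates lay within 1.20-fold, with this scaling the narrowest range of the 7 detected genes, and Agilent's error estimate was 14.3% of the signal. With scaling to the median over all probes the rank changed. Around the gene mean Dusp7 then ran from -0.13 to 0.23 and Dusp5 from -0.11 to 0.20. The other Dusp7 probe had signals of 8.30, 9.27, 10.3 and 19.1 and lacked the mark on all 4 arrays. The probes thus disagreed, and the detection of Dusp7 rests on 1 of them. Dusp9, which encodes the ERK phosphatase MKP-4, had signals of 9.38, 6.60, 7.20 and 7.30, all under the negative control limit (0.406 to 0.767 times).

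Of the phosphatases that prefer JNK and p38, Dusp10 encodes MKP-5. Its signal was 54.7, 94.5, 96.9 and 134 and its level -5.17, -4.39, -4.69 and -4.16 (mean -4.60 ± 0.44, SD, n = 4). Replicate 1 was the lowest and replicate 4 the highest, 2.01-fold apart, while Agilent's error estimate of the spot was 11.1% of its signal. The spots around it were not dim in replicate 1: each detected spot near it, up to 5 rows or columns away, was set against its own median log2 level on the other arrays, and for these 46 spots the median deviation in replicate 1 was 0.10.

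Dusp16, which encodes MKP-7, had signals of 184, 438, 407 and 373 and a level of -3.42, -2.18, -2.62 and -2.69 (mean -2.73 ± 0.52, SD, n = 4). Replicate 1 was the lowest and replicate 2 the highest, 2.37-fold apart. The 31 detected spots around the Dusp16 spot had a median deviation of -0.63 in replicate 1, against -0.01, 0.04 and 0.02 in replicates 2 to 4. Their part in the low value was not tested. Without the spot of replicate 1 the SD fell from 0.516 to 0.277, and leaving out the value furthest from the mean lowers an SD by construction. No other member's spots lay in an area this dim: their lowest neighbourhood deviation was -0.10, at Dusp6. Dusp8, a phosphatase known from the brain and heart, had signals of 24.2, 15.1, 16.3 and 23.6, which is 0.929 to 2.14 times the negative control limit.

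**Figure D3:**
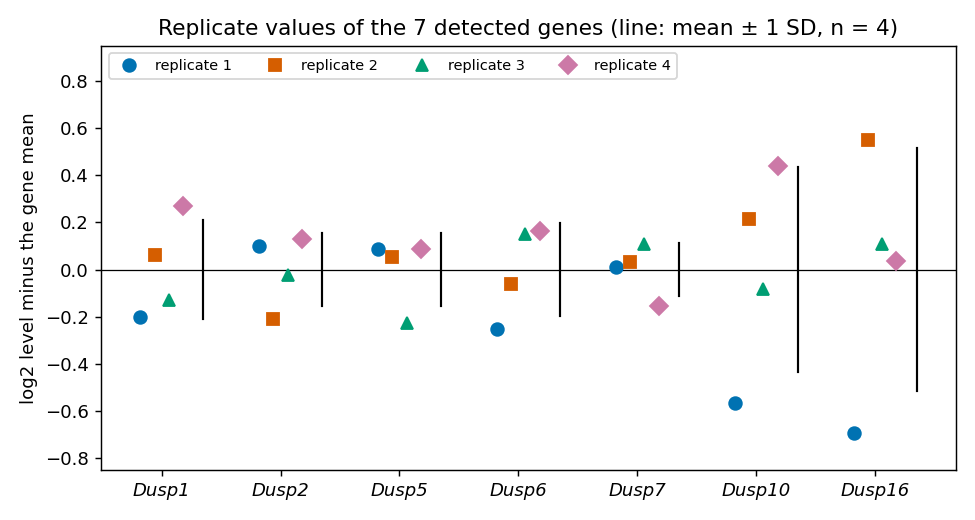
Log2 level of the 7 detected genes in each replicate, relative to the mean of the gene; the vertical line beside each gene spans 1 SD on either side of the mean (n = 4). Dusp10 and Dusp16 ranged most widely, from -0.57 to 0.44 and from -0.70 to 0.55, and the Dusp16 spot of replicate 1 lies in a dim area of that array.

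The spread of each gene over the 4 replicates was tested with limma, by an F test of its residual variance against that of genes of like level, adjusted over all 8713 detected genes. None of the 7 phosphatase genes passed an adjusted p of 0.05 (limma, adjusted p from 0.969 to 0.999), while 1 of the 8713 genes did (0.0115%). Before adjustment 1 of the 7, Dusp16, was under 0.05, against 4.3% of all detected genes. Dusp16 and Dusp10 spanned more than 2-fold between replicates, as did 2.66% of all detected genes. Dusp10 did so narrowly, at 2.01-fold, and was within 2-fold under some of the alternatives given below. Dusp10 and Dusp16 both had their lowest value in replicate 1. Without it the SD was 0.264 in place of 0.436 for Dusp10 and 0.279 in place of 0.516 for Dusp16. Dusp16 was then no longer under 0.05 before adjustment. Without replicate 2, 3 or 4 the SD was 0.502, 0.527 and 0.395 for Dusp10 and 0.441, 0.626 and 0.631 for Dusp16. Replicate 1 was furthest from the mean in both genes, and leaving out such a value lowers an SD by construction. The median SD of the 7 genes was 0.197, and 0.151 over all detected genes, which have other levels. Set against the 500 detected genes nearest in level, the SD of Dusp16 was larger than that of 98.4%, of Dusp10 than 94.2% and of Dusp6 than 85.4%. The SDs of Dusp2 (56.4%), Dusp5 (53.8%) and Dusp1 (40.8%) lay near the middle, and Dusp7 (9.6%) near the low end. The number of 4 arrays limits the precision, and a gene that was not called may still differ between cultures.

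**Figure D4:**
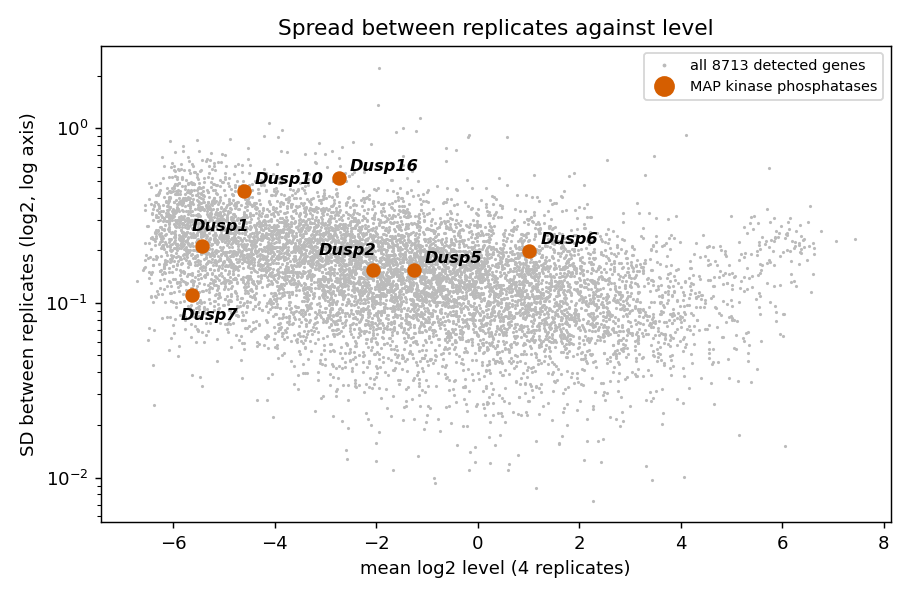
SD between the 4 replicates (log axis) against the mean log2 level of each of the 8713 detected genes (grey), with the 7 detected phosphatase genes in orange. Dusp16 (0.52) and Dusp10 (0.44) lie in the upper part of the cloud at their level, and Dusp7 (0.11) in the lower part.

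Part of the family shared its lowest and highest replicate. Replicate 1 was the lowest for 4 of the 7 genes (Dusp1, Dusp6, Dusp10, Dusp16) and replicate 4 the highest for 5 (Dusp1, Dusp2, Dusp5, Dusp6, Dusp10). For Dusp2, Dusp5 and Dusp6 replicate 4 was nearly tied with another replicate. Their levels were -1.94 against -1.97 in replicate 1, -1.162 against -1.165 in replicate 1 and 1.18 against 1.17 in replicate 3. Over all detected genes, replicate 1 was the lowest for 28.5% and replicate 4 the highest for 24.7%. These shares hold for the main scaling, and none is given for the alternatives below. The median deviation of the 7 genes was -0.20, 0.05, -0.02 and 0.13 in replicates 1 to 4, and that of all detected genes was between -0.01 and 0.02. Over 7 alternatives, the deviation of the 7 genes in replicate 1 was between -0.36 (no scaling) and -0.05 (normexp background correction). In replicate 4 it was between 0.07 (normexp) and 0.26 (no scaling). With no scaling, differences between whole arrays remain in these values. The 75th percentile signal was 1969.6, 1980.1, 2493.2 and 2402.5 in replicates 1 to 4. The normexp setting added an offset of 50, which is of the size of the Dusp1 and Dusp7 signals and of the Dusp10 signal in replicate 1. An offset of that size narrows log2 differences of dim genes, and its share was not separated from that of the correction. The deviations in replicates 2 and 3 changed sign between alternatives, from -0.11 to 0.06 and from -0.07 to 0.16. The count of 5 depended on scaling and background correction. Replicate 4 was the highest for 5 genes with median scaling, 4 with no scaling, 3 with quantile normalization, 2 with the 75th percentile over all probes and 2 with normexp. Dusp6, Dusp10 and Dusp16 were lowest in replicate 1 under each of the 7 alternatives of scaling, background, outlier spots and probes. Dusp1 was lowest there under 6, the exception being normexp. The alternative that averaged detected probes could not change a value, as each gene had 1 detected probe. None of the 7 dealt with the dim area around the Dusp16 spot of replicate 1. In bulk RNA, a change in the share of cells that express a gene and a change in RNA per cell cannot be told apart.

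The rest of the pathway was described by 8 lists of 85 genes, of which 79 were measured and 63 detected (79.7%). Of 10 MAP kinases, 7 were detected, including Mapk3 (ERK1, 4.43 ± 0.24, SD, n = 4). Mapk10 (JNK3), Mapk11 (p38 beta) and Mapk12 (p38 gamma) were not. All 7 MAP kinase kinases were detected, among them the ERK activators Map2k1 (0.88 ± 0.11) and Map2k2 (1.02 ± 0.06). Of 10 measured MAP3 kinases, 9 were detected, including Araf (-0.86 ± 0.16), and Map3k5 was not. Of 9 measured kinases downstream of MAP kinases, 8 were detected, including the p38 targets Mapkapk2 (2.72 ± 0.02) and Mapkapk3 (3.31 ± 0.01), and Rps6ka2 was not.

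Other phosphatases and feedback inhibitors were detected to differing extents. Of 13 measured small dual-specificity phosphatases, which lack the kinase-binding domain of the family, 9 were detected, including Dusp3 (1.12 ± 0.14, SD, n = 4) and Dusp11 (-0.95 ± 0.10). Dusp21, Dusp23, Dusp26 and Dusp29 were not. Of 7 other phosphatases that act on MAP kinases, 6 were detected, including the haematopoietic tyrosine phosphatase Ptpn7 (0.62 ± 0.09) and Ppm1a (-1.60 ± 0.13), and Ptprr was not. Of 6 measured Sprouty and Spred genes, which restrain the path from growth factor receptors to ERK, 2 were detected, Spred1 (-6.44 ± 0.15) and Spred3 (-5.70 ± 0.48). Spry2, Spry3, Spry4 and Spred2 were not. Of 17 transcription factor genes that respond to MAP kinases, 15 were detected, including Fos (-4.81 ± 0.15) and Fosb (-4.23 ± 0.28), and Fosl1 and Egr3 were not. Of factors that bind the motifs shown above, the list held Srf (1.58 ± 0.18), Creb1 (-3.52 ± 0.29) and Atf2 (-4.58 ± 0.08), which were detected and were singled out after their values were seen.

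**Figure D5:**
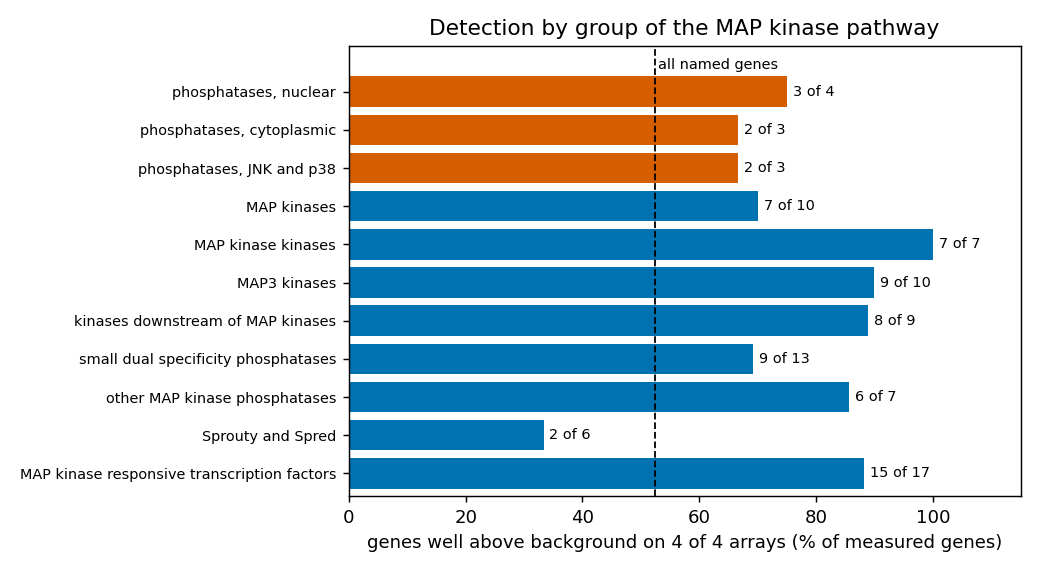
Share of measured genes that were well above background on 4 of 4 arrays, for the 3 classes of MAP kinase phosphatases (orange) and 8 other lists of the pathway (blue), with detected and measured numbers beside each bar. The dashed line is the share over all named genes (52.5%); Sprouty and Spred genes (2 of 6) lie below it.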

How the data were processed

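The deposited intensity values are Agilent processed signals per spot, which Feature Extraction 11.0.1.1 wrote, as the file headers and the submitters' processing notes state. The sources used here name no scaling between arrays. All 4 arrays came from 1 slide. Controls were dropped, as were spots that the software had marked as outliers, among them 1 Dusp6 spot in replicate 4. No spot was saturated. Spots of a probe were averaged as log2 values, and a probe was detected on an array where over 50% of its spots had the deposited flag (other values, 0 or 1) for signal well above background. Since 39.3% of probes were detected on all arrays, levels were scaled to the 75th percentile of those probes, at a signal of 1970 to 2493. Accessions were matched to a RefSeq table of GRCr8 (array design rn4, per the file headers), and the brightest probe stood for a gene, detected ones first. The test of spread used R 4.3.3 and limma 3.58.1. It was then run on simulated levels built from the fit to these data, and no result here rests on that run. Agilent's error estimate, also a deposited intensity, was divided by the signal. All 10 members are named; of the pathway lists, genes not detected and the first 2 detected are named, apart from 2 genes that are not reported here. Members and lists were chosen with earlier results of these data known. Alternatives were other detection rules, scalings, background correction, outlier and probe handling, variance models, filters, dim areas and leaving out each replicate.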

Additional observations from a re-analysis of the deposited data

Results flagged for a closer look

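Of 23 sets of 4 replicate levels (the 7 detected phosphatase genes and 16 pathway genes), 1 had a replicate far from the others when its gap to the nearest value was divided by the whole range (Dixon's ratio); chance gives about 1 in 20, or 1.15 sets. Dusp5, the nuclear ERK phosphatase, had its level in replicate 3 (-1.48) apart from those of the other replicates (-1.16, -1.20 and -1.16), with a ratio of 0.886. In unscaled signal replicate 3 (894) was above replicates 1 (879) and 2 (863), so without scaling it was not the lowest. The cause was not tested.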

How the results depend on the processing

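The same 7 phosphatase genes were detected on at least 3 or at least 1 of 4 arrays, above the negative control limit, with outlier spots kept and without each replicate. Of all named genes, 53.9% were detected on at least 3 of 4 arrays, 58.0% on at least 1 and 55.3% above the negative control limit. The looser mark, positive and significant, added Dusp8 and Dusp9 (9 genes, beside 61.7% of all named genes), and asking for all probes removed Dusp7 (6 genes, beside 47.7%). The median SD of the 7 genes was 0.276 with median scaling, 0.316 with no scaling, 0.153 with normexp (offset 50), and 0.177 to 0.232 without single replicates. Around its mean log2 level, Dusp10 ran from -0.54 to 0.40 with the 75th percentile over all probes and from -0.55 to 0.42 with quantile normalization. With normexp it ran from -0.26 to 0.29. These spans are within 2-fold, whereas that with median scaling (-0.64 to 0.55) is above. The normexp offset of 50 is near the Dusp10 signal of 54.7 in replicate 1 and narrows its log2 differences. Dusp16 stayed above 2-fold in each of these settings, with normexp narrowly (-0.58 to 0.45). Its lowest value was in each case that of replicate 1, whose spot lies in the dim area. None of these settings dealt with that area. The limma count of variable genes was 9 with the 75th percentile over all probes and 11 with median scaling. It was 0 with quantile normalization, with no intensity trend and with no filter on dim probes (349, 349 and 915 genes at an unadjusted p under 0.05), and 0 to 9 without single replicates (0 without replicate 1 or 2, with 393 and 378 genes at that unadjusted p; 9 without replicate 3 or 4). No phosphatase gene was called under any of the 11 alternatives run for this test (limma, lowest adjusted p 0.63, Dusp16 without replicate 4). Since at most 11 genes in all were called in any setting, these repeats say little about whether a member varied. Dusp16 kept an unadjusted p under 0.05 in 10 of the 11, the exception being the fit without replicate 1. Of 168 values of level in a replicate relative to the gene's mean, 162 moved by less than 1 SD. The 28 with the mean over detected probes could not move, since each gene had 1 detected probe. The 28 with outlier spots kept moved by at most 0.013. The sign changed for 6 of 28 values with median scaling. It changed for 2 of 28 each with normexp, quantile normalization and the 75th percentile over all probes. The causes were not tested. For Dusp4, Dusp8 and Dusp9, signal over background limits what can be said. No paired analysis was possible because the samples form 1 group.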

Other observations

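Of the 63 detected pathway genes, 4 had an unadjusted p under 0.05 for spread between replicates, and none passed after adjustment over all genes (limma, adjusted p = 0.969). The share is near the 4.3% of all detected genes under 0.05, so the values are given as a description. These 4 genes and Itgam were named after their values were seen. Jun, a subunit of AP-1, had levels of -0.52, 0.25, -0.68 and -0.66 in replicates 1 to 4, so replicate 2 was the highest. Styx, which encodes a catalytically inactive relative of the dual-specificity phosphatases, was also highest in replicate 2, at -3.15, -2.41, -3.30 and -3.23. The zinc finger transcription factor genes Egr1 (-6.56, -6.36, -5.36 and -4.91) and Egr2 (-3.46, -3.74, -2.69 and -2.84) had their 2 higher values in replicates 3 and 4. The macrophage marker Itgam, outside the pathway, also had its higher values there (-2.08, -2.17, -1.21 and -1.30). Over 4 samples no correlation was computed.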
